A study of Glycine max with 13 samples.

Results

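Of 71895 merged soybean genomic sites bound in vitro by maize auxin response factors, 240 (0.334%) carried a called binding event of all 12 factors tested, and these sites are described here. They were found by pooling the events of the 12 deposited lists and chaining events on a chromosome whose neighbours lay within 100 bp of each other. A chain with at least 1 event in every list was kept. The values that chose the sites are therefore the presence and position of events, and both are given below as descriptions. The 240 sites held 3229 of 177320 events (1.82%).

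The series holds 13 samples. In 12 of them, 1 maize auxin response factor (ARF) was bound to genomic DNA from soybean (Glycine max) leaf, and the bound DNA was sequenced by DNA affinity purification sequencing (DAP-seq), which reads out binding of an isolated protein to naked DNA outside the cell. The remaining sample is a control with the GST-HALO tag and was not analysed here. Every ARF has 1 library, so no value below has a replicate of its own protein, and the depth of the libraries is unknown.

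ARFs are the transcription factors of the auxin response. Their B3 domain contacts auxin response elements, short motifs with a TGTC core, and ARF pairs can hold closely spaced copies of the element as dimers. Clade A ARFs generally activate transcription and are released when auxin removes their Aux/IAA partners, whereas clade B ARFs generally act as repressors. From the published maize phylogeny, which the labels do not give, ARF4, ARF16, ARF18, ARF27, ARF29 and ARF34 were taken as clade A, and ARF7, ARF10, ARF14, ARF25, ARF36 and ARF39 as clade B. No source used here names the genome build of the positions, and genes and sequence at the sites were not analysed here.

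The shared sites were among the stronger events of most lists. Each deposited event has a strength, the authors' own value with no stated scale, which can rank events within a list only. The median site stood at the 97.5th percentile of the ARF34 list, the 96.7th of the ARF4 list, the 96.5th of the ARF16 list and the 95.8th of the ARF27 list. In the clade B lists the median site stood between the 85.4th percentile (ARF39) and the 95.4th (ARF25). ARF18, whose list of 1106 events was the shortest, had its median site at the 67.5th percentile. Few sites were weak: the weakest 10% of a list held 10 sites for ARF18, 5 for ARF14, 4 for ARF10 and 2 each for ARF7 and ARF39, and 0 for the other 7 ARFs. The strongest 10% held 187 sites for ARF16 and 56 for ARF18, the extremes over the lists. These percentiles are set partly by list length, since the 240 sites made up 22.9% of the ARF18 list, 6.32% of the ARF39 list and 0.815% of the ARF34 list.

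Strengths spread widely within a list. At the 240 sites, ARF27 events ran between 33 and 3096 with a median of 84.5. ARF34 events ran between 22.1 and 2535 with a median of 160.2. ARF14 events lay between 19 and 632 with a median of 115.5, and ARF18 events between 20.2 and 786 with a median of 42. To compare the lists, the 240 strengths of each were ranked, with rank 1 the weakest and 240 the strongest.

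ARF18 was the factor most often missing from sites that fell short of 12. Just outside the rule stood 405 sites with events of exactly 11 ARFs, and 311 of these (76.8%) lacked only ARF18. ARF39 was the missing factor at 32, ARF10 at 13, ARF14 and ARF29 at 11 each, ARF7 at 10, ARF36 at 6, ARF27 and ARF34 at 4 each, ARF25 at 2, ARF16 at 1 and ARF4 at 0. Without the ARF18 list the same rule keeps 551 sites. Only 2 of the 405 sites had an event of the missing ARF beyond 100 and up to 200 bp away, and chaining within 200 bp in place of 100 gave 244 sites. Just inside the rule, 7 of the 240 sites were held together by an inner gap of 91 to 100 bp.

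The 240 sites ranked higher in the other clade A lists than the 311 sites without a called ARF18 event, and to a lesser degree in the clade B lists. This was seen by ranking the 551 sites within each of the 11 other lists. In the ARF16 list the 240 sites had a mean rank of 397 and the 311 sites without ARF18 a mean rank of 182. The means were 385 and 192 in the ARF27 list, 380.1 and 196 in the ARF34 list, 372 and 202 in the ARF29 list, and 365 and 208 in the ARF4 list. In clade B the same 2 means were nearer to each other, at 289 and 266 for ARF7, 284 and 269.8 for ARF36, 303 and 255 for ARF10, 308 and 251 for ARF14, and 313 and 248 for ARF25. ARF39 had the widest separation of its clade, with 332 and 233. Median strengths did not follow the clades throughout. In the ARF16 list they were 158 at the 240 sites and 58 at the 311 sites, in the ARF4 list 84.5 and 55.2, in the ARF36 list 109.5 and 109.1, and in the ARF39 list, of clade B, 98.9 and 53. As an ARF18 event is part of the rule, these values describe the choice of sites and were not tested. Depth is unknown, so an absent ARF18 event may have missed the threshold of its short list.

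All 20 chromosomes carried shared sites. Chromosome 1 had the fewest, 6, and chromosome 19 the most, 19, followed by chromosomes 2 and 13 with 17 each. Per 1000 merged sites of the same chromosome the number ran between 1.43 on chromosome 1 and 4.87 on chromosome 13, against 3.34 over the genome. Shared sites rarely lay close together: 6 of 240 had another within 10 kb. The 2 closest pairs, on chromosomes 2 and 7, had starts 216 and 222 bp apart, and the pair on chromosome 5 had starts 2573 bp apart. A merged site of any kind lay within 1000 bp of 25.4% of the 240 sites, of 25.2% of the sites with 11 ARFs and of 23.8% of all sites other than the 240.

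Events of the 12 proteins lay close together at the shared sites, which the chaining within 100 bp in part requires. Taking the strongest event of each ARF at a site, the 12 positions spanned a median of 33.5 bp (95% order-statistic interval over sites 28 to 39 bp), with a lowest of 3 bp and a highest of 266 bp. Without ARF18, the median span at the 551 sites was 41 bp. At the 240 sites the span was at most 10 bp at 26 sites, at most 20 bp at 74 and over 100 bp at 19. The median offset of an ARF from the median position of its site was 4 to 7 bp, and an ARF lay over 30 bp away at 12 (ARF27) to 23 (ARF10) of the 240 sites. ARF7 had the highest median offset, 7 bp, followed by ARF34 with 6 bp.

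**Figure D1:**
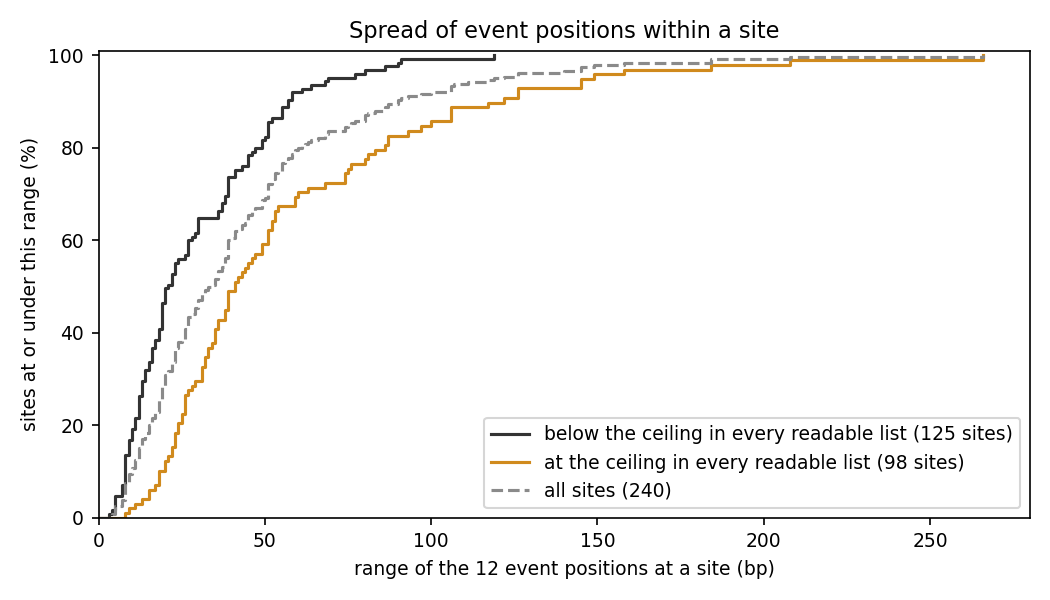
Share of sites (y axis, %) whose 12 event positions span at most the distance on the x axis (bp), for all 240 sites and for the 125 sites below and the 98 sites at the p-value ceiling described in the text. The curve of the sites below the ceiling lies left of the other, with a median of 21 bp against 41 bp at the ceiling.

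The tightest site was chr15:4747777-4747780, where all 12 events fell on 4 neighbouring positions, a span of 3 bp. ARF27 and ARF29 were at 4747777, ARF4, ARF18, ARF25 and ARF36 at 4747778, ARF34, ARF7, ARF14 and ARF39 at 4747779, and ARF16 and ARF10 at 4747780. The next were chr18:43798087-43798091 with a span of 4 bp, and chr3:17464141-17464146, chr8:19435250-19435255 and chr5:19031555-19031664 with 5 bp each. Of these 5 sites, 3 were strong in nearly all lists, with mean ranks of 216 (chromosome 5), 213 (chromosome 3) and 209.96 (chromosome 15). The sites on chromosomes 18 and 8 had mean ranks of 162 and 128.

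The chromosome 5 site was the 1 site where every ARF had more than 1 event. Each of the 12 lists had 2 events there, the first between 19031555 and 19031560 and the last between 19031657 and 19031664. The distance between them was 97 bp for ARF4, the shortest, and 109 bp for ARF14, the longest, with a median of 102.5 bp. The second event was the weaker one in all 12 lists. Its strength was 61.9% of the first for ARF14, 58.7% for ARF18, 55.3% for ARF16, 52.4% for ARF39 and 46.2% for ARF34, and between 16.2% (ARF27) and 30.6% (ARF4) for the other 7 ARFs. As the position of the strongest event alone enters the span, this site counts among the tightest although its events cover 110 bp.

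At the other extreme was chr19:17900273-17900657, with a span of 266 bp and 29 events over 385 bp. Of its strongest events, those of ARF4, ARF18, ARF27, ARF29, ARF10, ARF14 and ARF39 lay between 17900495 and 17900517, that of ARF16 was at 17900521, those of ARF25 and ARF7 were at 17900571 and 17900604, and those of ARF34 and ARF36 were at 17900363 and 17900338. At chr3:33639279-33639502, with a span of 208 bp, the clade A events stayed within 33639365 to 33639380 while the clade B events ran between 33639279 (ARF14) and 33639487 (ARF25). At chr7:4425646-4425804 clade A itself was spread out. ARF27 lay at 4425646 and ARF4 and ARF18 at 4425648, ARF16 and ARF34 lay at 4425708 and 4425716, and ARF29 lay at 4425801, among the 6 clade B events at 4425771 to 4425804.

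Members of a clade lay closer to each other than to the other clade. Over the 240 sites, the median distance between 2 ARFs averaged 6.33 ± 1.69 bp over the 30 same-clade pairs and 9.01 ± 1.77 bp over the 36 different-clade pairs (SD over pairs, which share proteins), a difference of −2.68 bp that carries no test. The average was 5.6 bp within clade A and 7.07 bp within clade B. The closest pair was ARF16 with ARF18 at 3 bp, and the farthest were ARF4 with ARF7 and ARF18 with ARF7 at 12 bp each. Same-clade events lay within 10 bp of each other at 62.4% of the sites on average, and different-clade events at 53.9%. The median positions of the clades were at most 10 bp apart at 154 sites and over 30 bp apart at 22.

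Sites where the clades occupied separate stretches were few. All clade A positions lay on one side of all clade B positions at 5 of the 240 sites. With ARF18 left out there were 7 such sites among the 240 (2.92%), against 5.08% of the 551 sites, so separation was no more frequent at the shared sites than in that background. The clearest was chr6:21463260-21463448, where the clade A events lay at 21463260 to 21463295, ARF7 at 21463311 and the 5 other clade B events at 21463390 to 21463444, so that the clade medians were 132 bp apart. At chr5:25638843-25639051 the order was turned round, with clade A at 25638955 to 25639051 and clade B at 25638867 to 25638942. The other 3 were chr3:41407870-41407938, chr6:3672111-3672139 and chr7:37956003-37956024, with clade medians 41, 14.5 and 10.5 bp apart, which were chosen for naming after their values were seen.

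Most sites were simple. At 131 of the 240 every ARF had exactly 1 event, and at 44 a single ARF had more. In all, 331 of 2880 combinations of an ARF and a site (11.5%, Wilson 95% interval 10.4 to 12.7%, counting error only) had several events. The share was 5.42% for ARF18 and 6.67% for ARF29, the lowest, and 17.9% for ARF16 and 20.4% for ARF34, the highest. At 19 sites at least 6 ARFs had several. Neighbouring events of 1 ARF at a site were a median of 76 bp apart, with a range of 1 to 288 bp over 349 distances.

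Which of the 240 sites was strong differed between lists, and on average over pairs the ranking was shared more within a clade. With 1 library per ARF, a difference between proteins cannot be told apart from one between libraries. Spearman's rho of the ranks of 2 lists averaged 0.58 ± 0.21 over same-clade pairs and 0.39 ± 0.13 over different-clade pairs (SD over pairs, each over the same 240 sites), a difference of 0.20. Without ARF18 the rule keeps 551 sites and the difference was 0.31. Within clade B the mean was 0.68, with a lowest rho of 0.51 (ARF10 with ARF39) and a highest of 0.85 (ARF14 with ARF39). Within clade A the mean was 0.49 and the values ran between 0.06 and 0.88. Of the 12 ARFs, 11 had a higher mean rho with their own clade than with the other, and ARF29 did not, with 0.43 and 0.44. All these correlations are across sites of single libraries and carry no test.

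**Figure D2:**
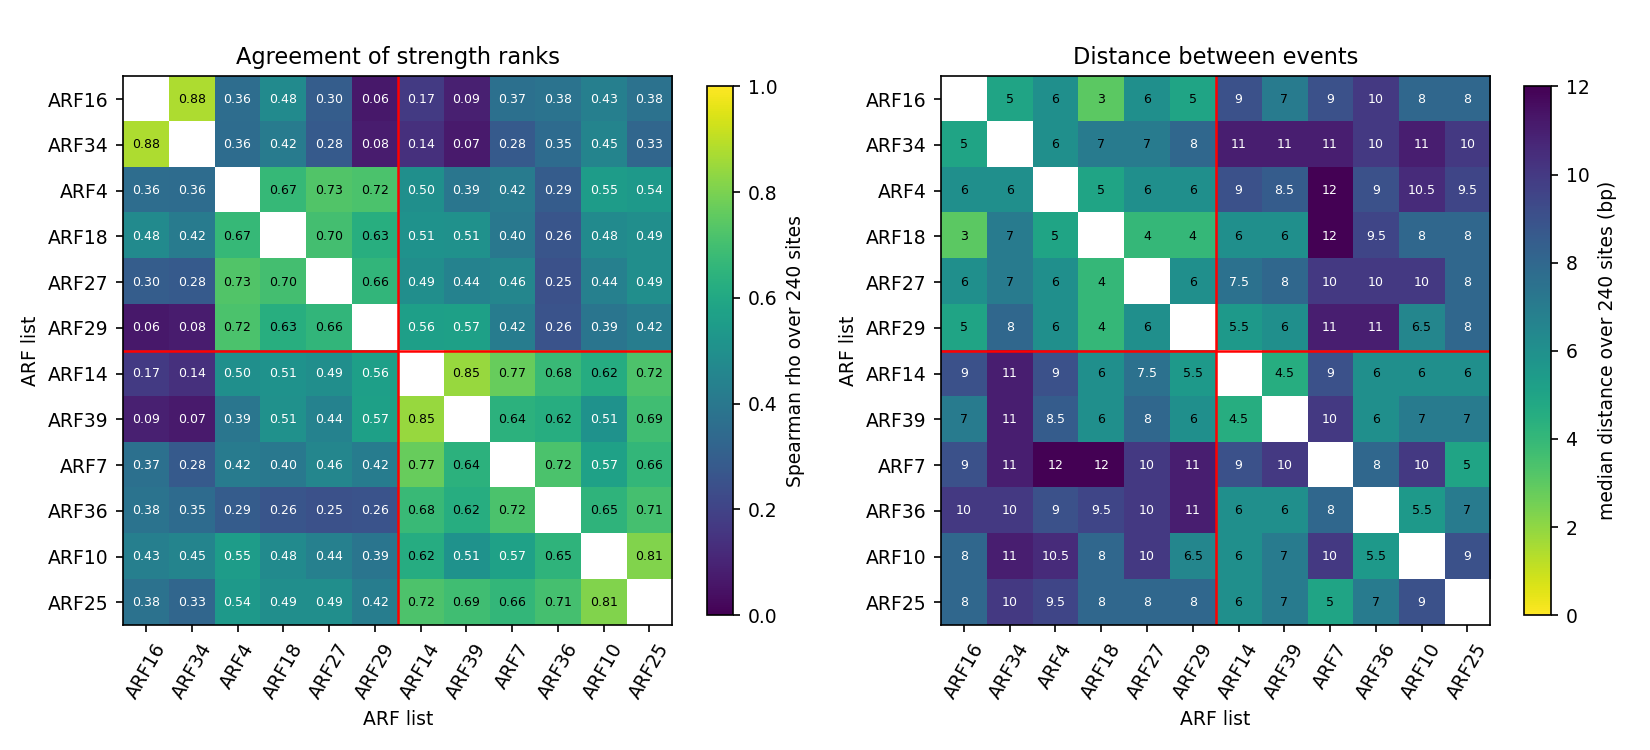
Each cell is a pair of ARF lists over the 240 sites: the left grid shows Spearman's rho of the strength ranks, and the right grid the median distance between the strongest events (bp), with red lines between clade A and clade B. ARF16 and ARF34 share a rho of 0.88. With the other clade A lists their rho runs between 0.06 (ARF16 with ARF29) and 0.48 (ARF16 with ARF18), although their events lie a median of 3 to 8 bp from those of the other clade A ARFs.

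Over all 240 sites clade A fell into subsets by rank, which were chosen after the values were seen. ARF16 and ARF34 ranked the sites almost alike, with a rho of 0.88. ARF4, ARF18, ARF27 and ARF29 were alike among themselves, with a mean of 0.68 and a range of 0.63 to 0.73. Between the subsets the mean was 0.29, with a highest of 0.48 for ARF16 with ARF18. The lowest were 0.06 for ARF16 with ARF29 and 0.08 for ARF34 with ARF29. With the 6 clade B lists the 4 ARFs had a mean rho of 0.44 and a range of 0.25 to 0.57. ARF16 and ARF34 had a mean of 0.29 with clade B, close to that between the subsets, with values of 0.07 to 0.17 for ARF14 and ARF39 and of 0.28 to 0.45 for the other 4 clade B ARFs. At 98 of the sites, those at the p-value ceiling that is defined with the deposited p-values, the 4 ARFs were no more alike among themselves than with ARF16 and ARF34, with mean rho of 0.40 and 0.42. Their mean with clade B was 0.27 there, and ARF16 with ARF34 had 0.85. In position, events of the subsets lay 6 bp apart on average over the 8 pairs, and those of the 4 ARFs 5.17 bp apart over their 6 pairs.

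**Figure D3:**
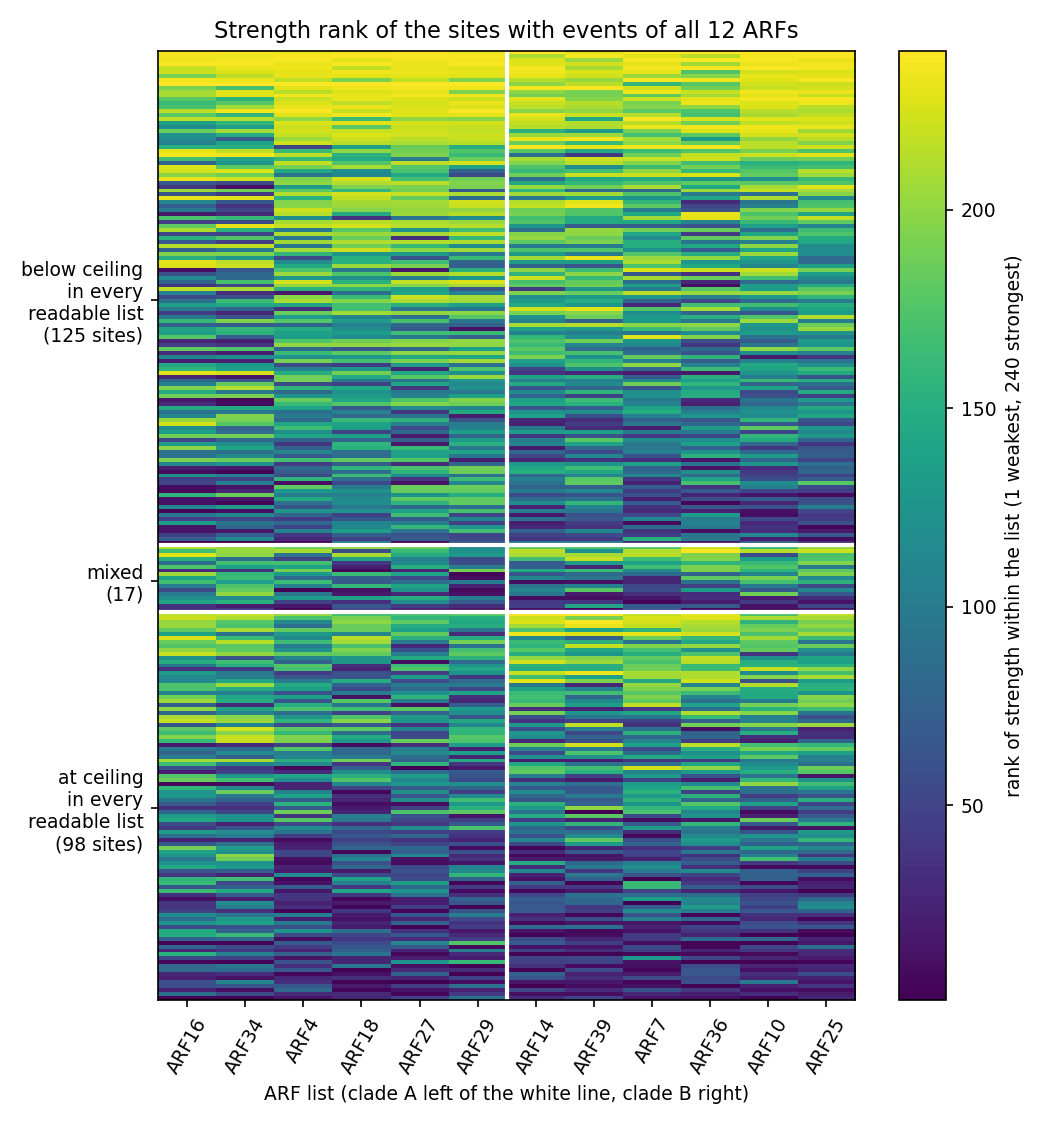
Heat map of strength rank within a list (colour, 1 weakest to 240 strongest) for the 240 sites (rows) in the 12 ARF lists (columns, clade A left of the white line, clade B right), with rows grouped by the p-value ceiling and ordered by mean rank. The uppermost rows are bright in every list, and ARF4, ARF18, ARF27 and ARF29 darken together in the lower group of 98 sites, where their mean ranks are 78.8 to 85.1.

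Some sites were strong for all proteins and some weak for all. All 12 ranks lay above the middle of the ranking at 24 sites and below it at 22, and the SD of the 12 ranks of a site had a median of 49.9. The strongest was chr8:3960034-3960205, with a mean rank of 237 and an SD of 3.32. It was the strongest of the 240 for ARF10, ARF14, ARF25 and ARF36, with strengths of 1787, 632, 1336 and 1129, and its lowest rank in any list was 230, that of ARF39 at a strength of 509. The next 4 by mean rank were chr14:30944492-30944521 (232), chr15:7722548-7722558 (232), chr8:24156319-24156349 (231) and chr7:2268491-2268498 (229.9). At these 5 sites the lowest rank of any ARF was 204, that of ARF39 at the chromosome 15 site. The weakest were chr6:21463260-21463448 with a mean rank of 23.3, chr6:31173364-31173382 with 26.0, chr6:37559424-37559549 with 30.3, chr2:41747035-41747110 with 30.9 and chr3:31155168-31155207 with 35.1. The first of these is also the site where the clades stood farthest apart.

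At 11 sites 1 ARF ranked the site among its 24 weakest and another among its 24 strongest. At chr7:36981861-36981960, which had the largest SD of rank (82.1), ARF27 gave rank 3 with a strength of 35.7 and ARF7 gave rank 224 with a strength of 286. At chr16:29538003-29538011 ARF18 gave rank 9 with a strength of 22 and ARF39 gave rank 225 with a strength of 433. At chr11:26384018-26384028 ARF16 gave rank 11 and ARF7 rank 227, although the 12 events lay within 10 bp of each other. At chr16:5703880-5703938 the order of the clades was the opposite, with ARF16 at rank 230 and ARF36 at rank 17. Such sites are extremes by choice and their spread has no test.

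The clades ranked certain sites differently. The largest difference of mean rank in favour of clade A was at chr2:6345162-6345197, where the clade A ranks had a lowest of 127.5, a median of 178.5 and a highest of 219, and the clade B ranks a lowest of 19, a median of 51.8 and a highest of 110. The clade A ranks all lay above the clade B ranks there, and the means differed by 120.3. At chr6:1110627-1110642 the clade A ranks were 181, 216 and 231 in the same order and the clade B ranks 60.5, 91.5 and 136, again without overlap. The next were chr16:5703880-5703938 and chr17:41603830-41603885 with 114 each and chr9:48792638-48792656 with 109.4. In favour of clade B, chr7:36981861-36981960 had clade A ranks of 3, 28.5 and 73 and clade B ranks of 129.5, 181.5 and 224, a difference of −147. At chr16:29538003-29538011 the clade A ranks were 9, 32.3 and 132.5 and the clade B ranks 138, 177 and 225, a difference of −137. The next were chr11:26384018-26384028 with −117, chr13:33091491-33091551 with −116 and chr18:57012940-57012973 with −111. Over the 240 sites, all clade A ranks lay above all clade B ranks at 9 sites (3.75%) and all clade B ranks above all clade A ranks at 8 (3.33%). Ranked among the 551 sites and without ARF18, clade A was above at 28 of the 240 (11.7%) and clade B at 2 (0.833%). The shares of the 551 sites were 6.72% and 6.9%. An event of ARF18, a clade A protein, is part of the rule, so nothing is read from that split.

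A test of these differences was made with limma on the 551 sites and the 11 ARFs other than ARF18. Ranks within a list were turned into normal scores, clade A (5 ARFs) was set against clade B (6 ARFs), and p-values were adjusted over the 551 sites with the Benjamini-Hochberg method. Each protein enters as 1 library, so the p-values reflect how far proteins of a clade differ from one another. The fit takes the proteins as independent, yet some ranked sites much alike. Over the 240 sites ARF16 with ARF34 had a rho of 0.88 and ARF14 with ARF39 one of 0.85. The p-values may therefore be too small. At an adjusted p under 0.05 the fit called 59 of the 240 shared sites (24.6%), against 27% of the 551 sites, so the share was near the background. Of the 59, 52 had clade A higher and 7 had clade B higher, beside 12.3% and 14.7% of the 551 sites. At the 311 sites without ARF18 the counts were 16 and 74. ARF18, a clade A protein, chose the sites, so nothing is read from that split.

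The 5 calls with the smallest p in each direction were as follows. At chr18:51165191-51165230 clade A exceeded clade B by 2.07 ± 0.35 normal-score units (SE, limma adjusted p = 0.000441). Its ranks among 551 had a lowest of 195.5, a median of 319 and a highest of 471 in clade A, and a lowest of 5.5, a median of 26 and a highest of 103 in clade B, so the clades did not overlap. At chr6:19630175-19630237 the difference was 2.04 ± 0.27 (limma adjusted p = 0.00012), with 369.5, 417 and 447.5 in clade A and 16.5, 51.8 and 84 in clade B. The strengths there, which are not comparable between lists, were 157 for ARF16 and 155 for ARF34. They were 89, 96 and 58 for ARF4, ARF27 and ARF29, and 25 to 58 for the 6 clade B ARFs. The chromosome 2 site at 6345162 had a difference of 1.94 ± 0.30, chr3:33713962-33713984 one of 1.84 ± 0.32 and the chromosome 6 site at 1110627 one of 1.75 ± 0.29, with adjusted p of 0.000356, 0.000521 and 0.000441 in limma.

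In the other direction the named differences were smaller in size. The sites were chosen in part by an event of ARF18, a clade A protein, so nothing is read from that asymmetry. The chromosome 7 site at 36981861 had −1.62 ± 0.34 (limma adjusted p = 0.00169), with clade A ranks among 551 of 46, 129 and 336 and clade B ranks of 329, 461.5 and 524. The ranks overlapped at that site. At chr15:19024490-19024533 the difference was −1.22 ± 0.30 (limma adjusted p = 0.00562), and all clade B ranks, 522 to 546, stood above the clade A ranks, 236 to 494.5. With ranks in place of normal scores the adjusted p of that site was 0.0592, above the threshold. The sites on chromosome 11 at 26384018, on chromosome 16 at 29538003 and on chromosome 13 at 33091491 had −1.18 ± 0.35, −1.07 ± 0.32 and −1.04 ± 0.31, with adjusted p of 0.0160, 0.0179 and 0.0167 in limma. Leaving out 1 protein ended 3 of these calls. Without ARF16 the adjusted p was 0.0625 at the chromosome 11 site and 0.0554 at the chromosome 16 site, without ARF27 it was 0.0502 at the chromosome 11 site, and without ARF4 it was 0.0541 at the chromosome 13 site.

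**Figure D4:**
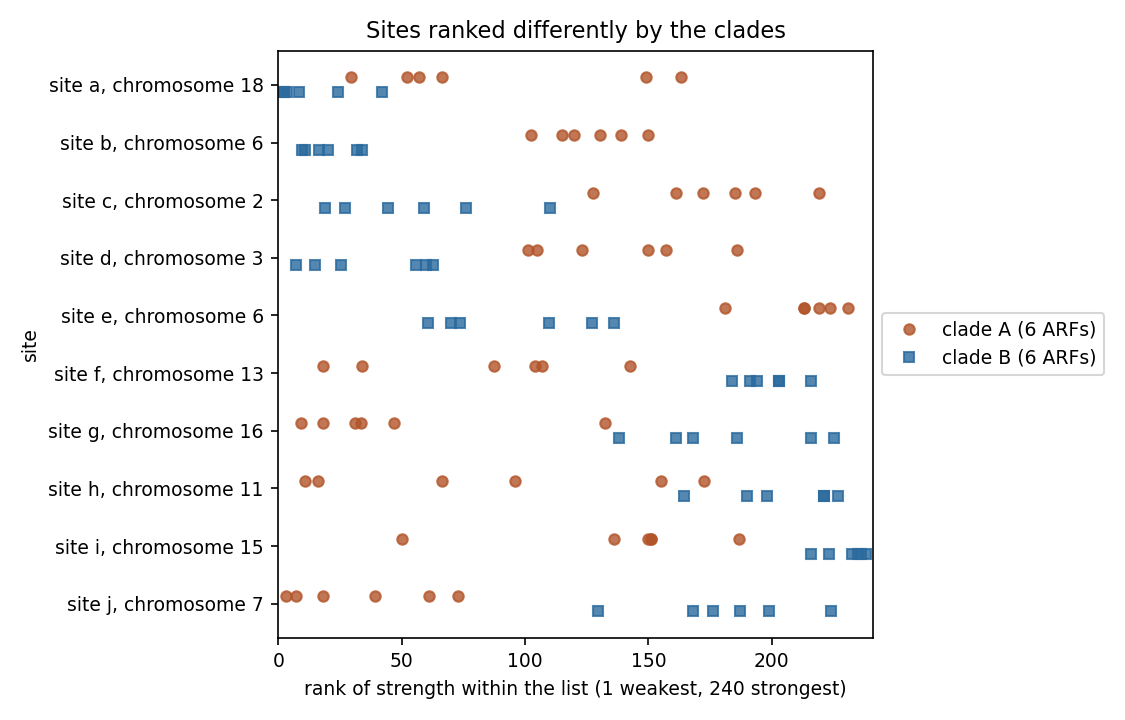
Strength ranks (x axis, 1 weakest to 240 strongest within a list) of the 6 clade A and the 6 clade B ARFs at the 10 sites with the smallest p of each direction in the limma fit. From top to bottom, sites a to e have clade A higher (chromosomes 18, 6, 2, 3 and 6) and sites f to j clade B higher (chromosomes 13, 16, 11, 15 and 7), and ARF18, which was not in the fit, is included among the clade A points.

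The deposited p-values divided the shared sites into 2 kinds. In each list an event's deposited −log10 p followed its strength up to a ceiling of strength times 0.301, the logarithm of 2 to base 10. That product is what a one-sided binomial test at even odds gives for as many reads with none opposing. This reading is inferred from the values, and no source used here states it. An event over 1% under the product is called below the ceiling, and otherwise at it. The highest readable value was 106% of the product, and 8 of the 3229 events at the shared sites had a −log10 p too high to be placed. At this tolerance the 12 lists mostly placed a site alike: 125 of the 240 sites (52.1%, Wilson 95% interval 45.8 to 58.3%) were below in every readable list, 98 were at the ceiling in every readable list and 17 were mixed. With events counted as below only when at least 10% under the product, 63 sites (26.3%) were below in every readable list, 100 were at it and 77 were mixed. Over all merged sites 43% were below in every list with an event, and of the sites with 11 ARFs 30.4% were. The 43% is not a like measure, as 34345 merged sites had 1 ARF, where a single list decides and no site can be mixed.

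By event, 54.1% of the readable events at the shared sites were below the ceiling, with 52.5% (ARF16) to 55.8% (ARF39) in the single lists. Of all readable events 44.1% were below, and of the events outside the shared sites 41.3% (ARF14) to 48.8% (ARF18) in the single lists. Events elsewhere of matched strength were below more often than those at the shared sites in all 12 lists, with 57.4% (ARF7) to 70.4% (ARF27). For this matching, the other events were grouped between strength limits taken from the events at the shared sites, and the groups were averaged with equal weight. The highest group had no upper limit, so it can hold events stronger than any at the shared sites. By this coarse matching, events at the shared sites were more often at the ceiling. At the sites below in every readable list the median event reached 78.4% of the ceiling.

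Positions and ranks both differed between the 2 kinds of site. The 12 positions spanned a median of 21 bp at the 125 sites below the ceiling and 41 bp at the 98 sites at it, and several events of 1 ARF were found in 9.53% and 12.9% of the combinations. The same-clade minus different-clade distance was −1.39 bp at the first kind, against −4.04 bp at the ceiling. Both parts of it were shorter at the first kind. Same-clade pairs averaged 4.8 bp there and 9.15 bp at the ceiling, and different-clade pairs 6.19 and 13.2 bp. The smaller clade difference is therefore not read apart from the tighter positions. The 5 tightest and the 5 strongest sites were all below in every readable list. Of the 5 weakest, 4 were at the ceiling in every list and the site at 21463260 on chromosome 6 was mixed.

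The difference in rank was carried unequally by the lists. ARF29 had a mean rank of 157 at the sites below the ceiling and 83.4 at those at it, ARF18 156 and 81.4, ARF27 155 and 78.8, and ARF4 150.2 and 85.1. ARF16 had 127 and 112, and ARF34 127 and 109. The clade B means lay between, at 132 (ARF36) to 146 (ARF39) below the ceiling and 91.3 (ARF39) to 105 (ARF36) at it. These are the same 4 and 2 clade A ARFs as in the rank correlations over all sites. Spearman's rho of a list's rank with the median share of the ceiling in the other 11 lists was −0.59 for ARF27, −0.57 for ARF29, −0.52 for ARF18 and −0.46 for ARF4, against −0.06 for ARF34 and −0.04 for ARF16, over 240 sites that share the libraries. In clade B it ran between −0.41 (ARF39) and −0.16 (ARF36).

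**Figure D5:**
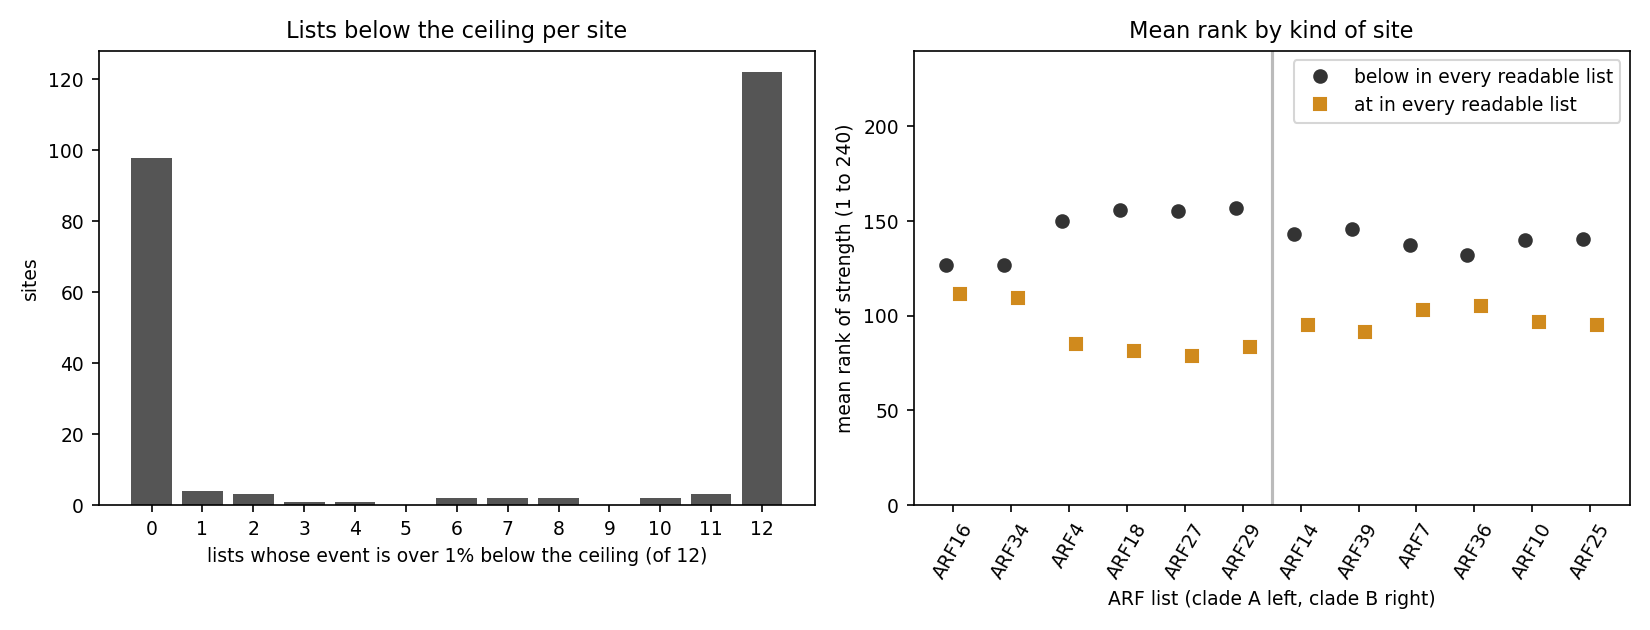
Left, number of sites by how many of the 12 lists had their event over 1% below the ceiling: 122 sites stand at 12 and 98 at 0, with 20 sites between. Right, mean strength rank (1 to 240) of the sites below and at the ceiling in each list; the pairs of ARF4, ARF18, ARF27 and ARF29 lie far apart and those of ARF16 and ARF34 close together.

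Within each kind of site the agreement between lists was not the same. Below the ceiling the same-clade mean rho was 0.58 and the different-clade mean 0.43, whereas at it they were 0.55 and 0.24. ARF18 was nearest to ARF16 at the ceiling, with a rho of 0.68, against 0.36 with ARF4, while over all sites its rho was 0.48 with ARF16 and 0.67 with ARF4. ARF14 with ARF36 had 0.54 below the ceiling and 0.84 at it, and ARF36 with ARF39 had 0.44 and 0.81. The mean rho of the 6 pairs among ARF4, ARF18, ARF27 and ARF29 was 0.79 below the ceiling and 0.40 at it, and that of ARF16 and ARF34 with these 4 was 0.22 below and 0.42 at it. Without ARF18 the last values were 0.44 below and 0.48 at it. With events counted as below only at 10% or more under the ceiling the order turned round, with 0.53 below and 0.41 at it. Differences between the kinds of site were not tested. The sources do not say whether all lists were called against the same control, so the 12 placements of a site are not counted as independent.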

How the data were processed

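DAP-seq event lists of 12 maize ARFs on soybean leaf DNA were analysed, 1 library each. Reads were handled with Trimmomatic 0.36 and Bowtie2, per the submitters' processing notes. GEM, an event caller, is named in the titles of the deposited lists, while its settings, filters and genome build were not given in the sources used here. Per the deposited files, each event is the centre of a 201 bp window with a signal value (strength, 17 to 20864) that the authors gave. The deposited files also give −log10 p and −log10 q, at most 999 (60 events), and the 67 events with a −log10 p above 290 were not placed against the ceiling.

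Events of all lists, at 1-based positions, were chained within 100 bp. At a site the strongest event of each ARF gave position and strength, and ties took mean ranks. limma 3.58.1 in R 4.3.3 fitted normal scores of ranks, clade A minus clade B, and calls had an adjusted p under 0.05. The code was tested on simulated data. Scripts ran in Python 3.11.15 with pandas 2.3.3, numpy 2.4.6, matplotlib 3.10.9 and scipy 1.17.1.

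Sites were named by rule: the 5 highest and 5 lowest in mean rank, the 5 largest clade differences of mean rank in each direction, the 5 largest SDs of rank, the 5 widest and 5 narrowest spans, and the 5 smallest p of limma in each direction. The sites, clades and lists were chosen with earlier results of these data known. Alternatives were chaining within 50 or 200 bp, dropping events under a list's median −log10 q, cutting every list to its 1106 strongest events, the event nearest the site median, mean distances, ranks without normal scores, 11 ARFs other than ARF39, a 10% tolerance on the ceiling and leaving out each ARF. The kinds of site by ceiling, and the alternatives built on them, were chosen after seeing the data.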

Additional observations from a re-analysis of the deposited data

Results flagged for a closer look

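ARF7 stood apart from the other clade B ARFs in position. Its median offset from the median event position of a site was 7 bp, against 4 or 5 bp for the other 5. The gap to the nearest of them was 0.667 of the range of the 6 values, above Dixon's 95% critical value for 6 values. In all, 20 groups of 6 values over 10 measures were looked at and 1 stood out, and chance puts about 1 in 20 such groups past that value.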

How the results depend on the processing

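No paired analysis was possible because each ARF has 1 library. The clade differences in distance and rho kept their sign under every alternative run for them. The differences at the 10 sites named from the fit also kept their sign where they were followed. That was only when leaving out an ARF, with ranks without normal scores, and with the event nearest the site median. The order of the subset rho below and at the ceiling turned round with a 10% tolerance. The 240 sites became 109 when events under the median −log10 q of a list were dropped and 38 with the strongest 1106 events of each list. The median span of positions (33.5 bp) was then 27 and 19 bp, combinations with several events (11.5%) were 14.4% and 9.43%, events below the ceiling (54.1%) were 59.5% and 81.5%, and, with the median filter, sites below in every list (52.1%) were 59.6%. Chaining within 50 bp gave 7.69% with several events and 56.4% of events below, and within 200 bp 14.8% with several events. With mean distances the clade difference in distance (−2.68 bp) was −3.86 bp. A tolerance of 10% gave 46.2% of events and 26.3% of sites below, and a mean rho between the clade A subsets of 0.53 below the ceiling, against 0.22. In alternatives chosen after seeing the data, sites below the ceiling only and at the ceiling only gave spans of 21 and 41 bp, several events of 9.53% and 12.9%, clade distances of −1.39 and −4.04 bp and, at the ceiling, a clade difference in rho of 0.31. The limma fit called 149 of 551 sites, against 46 of 254 with the median filter, 4 of 39 with the strongest 1106 events, 34 of 272 with ARF39 left out in place of ARF18, 51 of 205 below the ceiling only and 81 of 272 at it only. These tables hold fewer sites than 551. Tables of equal size still differed, with 34 calls of 272 sites when ARF39 was left out and 81 of 272 at the ceiling only. The source of that difference was not tested.

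Leaving out each ARF gave 240 to 551 sites, spans of 31 to 41 bp, clade distances of −3.46 to −2.38 bp, clade differences in rho of 0.16 to 0.31, several events of 8.94 to 11.8%, events below of 40.7 to 55.1%, sites below of 37.2 to 53.2%, subset rho of 0.20 to 0.44 below and 0.39 to 0.52 at the ceiling, 104 to 156 calls and 43 to 64 calls among the 240 sites. The ends at 551 sites, 41 bp, −3.46 bp, 0.31, 8.94%, 40.7%, 37.2% and 0.44 came without ARF18, which adds 311 sites. The 10 sites named from the fit were followed in 3 kinds of repeat only. These were leaving out each ARF of the fit, ranks in place of normal scores, and the event nearest the site median. They were not followed in the tables of other sites, such as the one with 34 calls of 272 sites when ARF39 replaced ARF18 as the ARF left out. Of these 130 repeats, 125 kept the call and 5 lost it. The losses were the 4 in the report without ARF16, ARF27 or ARF4, and the chromosome 15 site with ranks in place of normal scores, limma adjusted p = 0.0592. The cause was not tested. Depth is unknown, so an absent event may have missed a list's threshold.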
